A study of Branchiostoma lanceolatum with 8 samples.

Results

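Regions whose accessibility was listed as different between Activin-treated and control explants at both 11 and 19 hours post fertilization (hpf) are described here. They are the 11 hpf differential regions that overlap a 19 hpf differential region by at least 1 bp on the same scaffold. Of 3897 regions listed at 11 hpf, 1644 met this rule, and each was paired with the 19 hpf region of largest overlap. They were chosen by being listed at both times and by position alone, with no further selection on the sign or size of change. Being listed is itself tied to size, since each list has its own smallest absolute value. Since the lists come from the contrasts themselves, the counts, signs and fold changes below describe these regions, and no difference among them was tested.

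The libraries were made by ATAC-seq from ectodermal explants of the cephalochordate Branchiostoma lanceolatum (amphioxus), pieces of embryo taken from the tissue that otherwise gives rise to epidermis. The 4 groups of 2 libraries were control explants at 11 hpf, control explants at 19 hpf, and explants given 50 ng per mL of human recombinant Activin at each of these times. The labels give no strain, no start or length of exposure and no treatment of the controls, and do not say whether replicate libraries came from different spawnings. The deposited lists hold 1 value per region and time and none per library, so read depth, replicate spread and errors are unknown, and each value rests on 2 libraries against 2.

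Activin is a secreted ligand of the TGF-beta family. It signals through receptor kinases that phosphorylate SMAD2 and SMAD3, which enter the nucleus with SMAD4 and act at regulatory DNA together with partner factors such as FoxH1 and T-box proteins. Open chromatin marks promoters and enhancers where such factors can bind, and a region that differs at an early and a later stage is one where a difference from control was measured in both explant populations. In amphioxus, as in vertebrates, the pathway acts in patterning the axial and dorsal structures of the early embryo. The files name scaffolds and coordinates but no genes, and the RefSeq gene table at hand is on another assembly (klBraLanc5.hap2), so no region is assigned to a gene, no sequence is shown, and the tissue could not be checked against marker genes.

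Values are the authors' log2 fold changes from their deposited lists, read as Activin against control of one time. The files do not state the numerator of the ratio, so "positive" and "negative" follow the sign in the lists and say nothing of opening or closing. In tissue pieces, a change in the share of cells with an open region and a change in how open it is in each cell cannot be told apart. The 11 hpf list is at most 3.48% of its numbered set of regions (2.38% negative, 1.11% positive), and the 19 hpf list at most 8.31% (7.53% negative, 0.78% positive), since each set has at least as many members as its highest listed number. The smallest absolute log2 listed is 0.98 at 11 hpf and 1.44 at 19 hpf.

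Most of the regions listed at both times had a negative value at both. There were 1452 such regions (88.3%), 169 with a positive value at both times (10.3%) and 23 whose sign turned from positive to negative, while 0 had the opposite order. The 1644 are 42.2% of the 11 hpf list, made up of 54.6% of its 2660 negative and 15.5% of its 1237 positive regions. They overlap 1608 regions at 19 hpf, which is 22.2% of that list, 21.9% of its negative and 24.4% of its positive regions. Seen from 11 hpf the negative regions were listed again more often, whereas seen from 19 hpf the shares of both signs were close. They lie on 389 scaffolds and cover 1276 kb at 11 hpf, or 44.6% of the sequence that list covers.

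**Figure D1:**
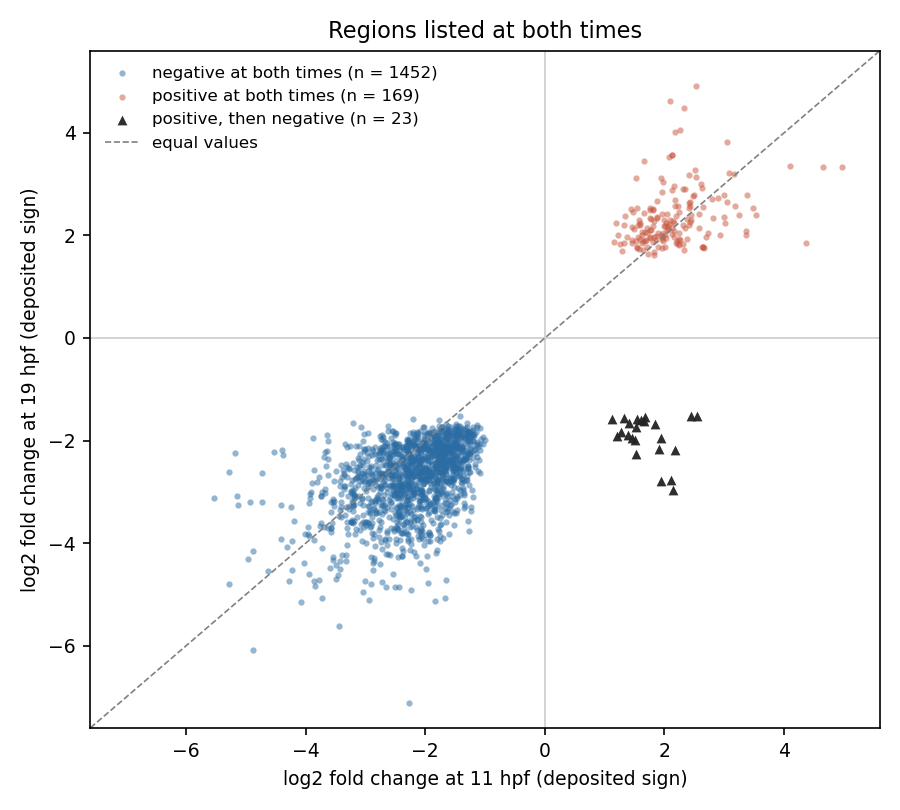
Each point is 1 region listed at both times, with the authors' log2 fold change at 11 hpf on the x axis and at 19 hpf on the y axis (deposited sign), coloured by its pair of signs. Most points lie in the lower left quadrant, 169 in the upper right and 23 (triangles) in the lower right, with none in the upper left. The dashed line marks equal values.

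Among regions negative at both times, the median log2 was -2.12 at 11 hpf (quartiles -2.61 and -1.71), a 4.35-fold difference, and -2.61 at 19 hpf (quartiles -3.13 and -2.20), a 6.10-fold difference. Region by region, the value at 19 hpf was lower by a median of 0.53 on the log2 scale (a difference of -0.53, quartiles -0.97 to -0.06). With both lists held to absolute values of 2 or more, which removes their different minima, this difference was -0.29. The absolute value was larger by over 1 at 19 hpf in 332 of the 1452 regions (22.9%) and smaller by over 1 in 33 (2.27%), and in 586 (40.4%) the times were within 0.5 of each other. An absolute log2 of at least 3 was reached by 198 of these regions at 11 hpf (13.6%, against 12.5% of all negative regions in that list) and by 437 at 19 hpf (30.1%, against 23.5%). Both times reached it in 114. The share of such large values was thus near that of the whole list at 11 hpf and above it at 19 hpf.

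Regions positive at both times differed less between the times. Their median log2 was 2.06 at 11 hpf (quartiles 1.76 to 2.42), a 4.16-fold difference, and 2.21 at 19 hpf (1.96 to 2.57), a 4.61-fold difference. The median of the differences was 0.20 (quartiles -0.16 to 0.58), and 0.080 with both lists held to values of 2 or more. In 101 of the 169 (59.8%) the times were within 0.5 of each other. An absolute log2 of at least 3 was found in 17 at 11 hpf (10.1%, against 4.61% of all positive regions in that list), in 22 at 19 hpf (13.0%, against 13.4%) and in 6 at both times. Here the share of large values was above that of the whole list at 11 hpf and near it at 19 hpf, the reverse of the negative regions.

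How far a value moved between the times went with where it started. Among both-negative regions in the lowest quartile of absolute log2 at 11 hpf, with a median of 1.48, the median at 19 hpf was 2.27, and all 363 had the larger value at 19 hpf. In the highest quartile the medians were 3.04 and 3.02, and 149 of 363 (41.0%) were larger at 19 hpf. Both-positive regions showed the same order, from 1.56 and 2.01 in the lowest quartile, where 42 of 43 were larger at 19 hpf, to 2.81 and 2.54 in the highest, where 11 of 42 were. The regions are ordered here by one of the values compared, and the lists differ in their smallest value. The part of either in this order was not tested.

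**Figure D2:**
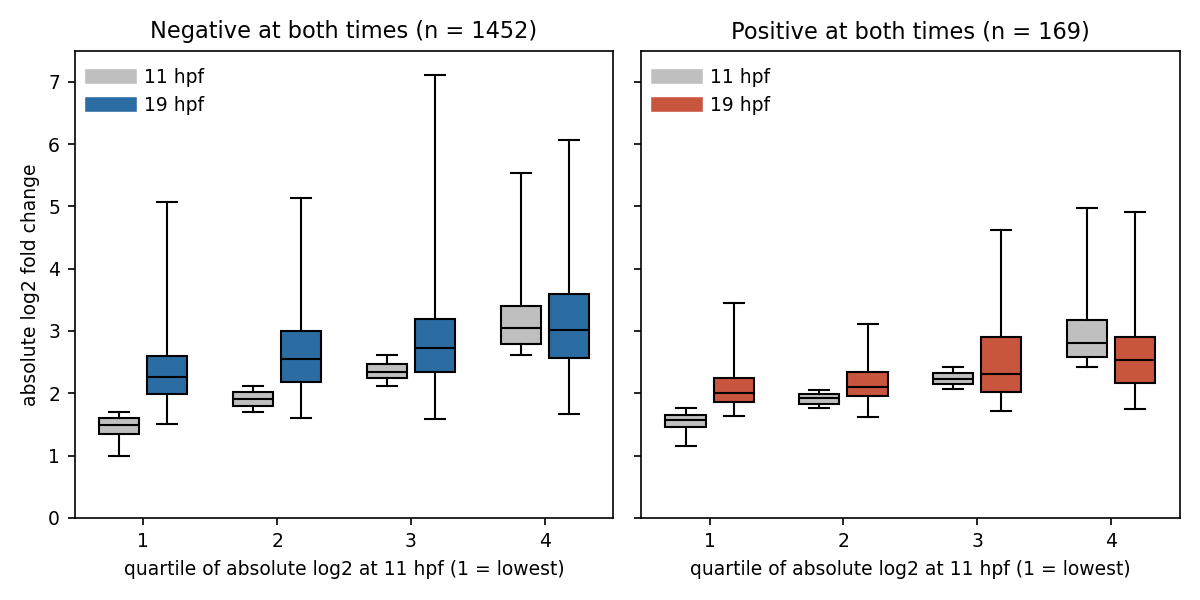
Absolute log2 fold change at 11 hpf (grey) and 19 hpf (coloured) for regions with the same sign at both times, split into quartiles of the absolute value at 11 hpf; boxes span the quartiles, lines in the boxes are medians and whiskers reach the lowest and highest region. In both panels the 19 hpf medians lie above the 11 hpf medians in the lowest quartile, and in the highest quartile they lie slightly below (negative, 3.02 against 3.04) or below (positive, 2.54 against 2.81).

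The regions strongest at both times were named by the smaller of their absolute values. Among negative regions, one on Sc0000004 (6115425 to 6115605 at 11 hpf) had a log2 of -4.88 at the earlier and -6.07 at the later time. On Sc0000008 (4466379 to 4466911) the values were -5.29 and -4.80, and on Sc0000046 (987738 to 988321) they were -4.64 and -4.54. These regions were 181, 533 and 584 bp wide at 11 hpf. A region on Sc0000005 (7236062 to 7236598) had -4.96 and -4.31, and one on Sc0000114 (452785 to 453120) had -4.27 and -4.73. Of these 5, only that on Sc0000046 had another region listed at both times within 10 kb.

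Among positive regions the strongest was on Sc0000750 (24029 to 24264), with 4.10 at 11 hpf and 3.35 at 19 hpf. On Sc0000102 (59033 to 59356) the values were 4.65 and 3.33. On xpSc0039672 (118398 to 118618) they were 4.97 and 3.33, in a region with identical edges in both lists. The next were on Sc0000072 (131347 to 131871), with 3.17 and 3.21, and on Sc0000124 (705591 to 706240), with 3.08 and 3.21. The 3 with the highest 11 hpf values had lower values at 19 hpf, and the other pair differed by at most 0.13 between the times.

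The 5 largest increases in absolute log2 were all in negative regions, which make up 1452 of the 1621 regions of equal sign ranked here. A region on Sc0000440 (38619 to 38822) went from -2.28 to -7.12. Those on Sc0000013 (743179 to 743796), from -1.68 to -5.08, and on Sc0000020 (914784 to 915155), from -1.84 to -5.13, had the next largest. On Sc0000003 (3242105 to 3242437) the values were -1.66 and -4.73, and on Sc0000145 (156459 to 156912) -1.95 and -4.78. Each had an absolute log2 under 3 at 11 hpf, as did all but 198 of the 1452 both-negative regions. In positive regions the largest increase, named after the values were seen, was on Sc0000024 (1995955 to 1996504), from 2.09 to 4.63.

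The 5 largest decreases in absolute log2, from the same 1621 regions (1452 of them negative), comprised 4 negative regions and 1 positive one. On Sc0000053 (904437 to 904964) the log2 was -5.19 at 11 hpf and -2.24 at 19 hpf. On Sc0000151 (10357 to 10657) it was -5.28 and -2.61, in regions that overlapped by 301 bp, the full 11 hpf width. The positive region, on Sc0000013 (1992841 to 1993069), had 4.37 and 1.86. On Sc0000160 (567739 to 568033) and Sc0000010 (1070033 to 1070195) the 19 hpf region was far wider than the 11 hpf one, at 977 against 295 bp and 501 against 163 bp. Their values were -5.53 and -3.12, and -4.53 and -2.22, so in these a narrow and a broad window were compared.

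Width was related to the values at both times. Both-negative regions in the narrowest quartile (125 to 412 bp at 11 hpf) had median absolute values of 2.40 early and 2.89 late on the log2 scale, and those in the widest (1046 to 2809 bp) had 1.78 and 2.37. Both-positive regions ran from 2.31 and 2.41 in the narrowest quartile to 1.80 and 2.09 in the widest. Read counts per region are not given, and their part in this was not tested. The median increase in absolute log2 from 11 to 19 hpf was 0.46 in the narrowest and 0.58 in the widest quartile of negative regions. In positive regions it was -0.08 in the narrowest quartile and then 0.33, 0.22 and 0.20.

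Which of the 11 hpf regions were listed again also went with width, and differently for the signs. Of the negative regions, 43.9% of the narrowest quartile were listed at both times (exact Clopper-Pearson 95% interval 40.1 to 47.7%), then 53.7%, 58.0% and 62.9% of the widest (59.1 to 66.5%), against 54.6% overall. Of the positive regions, 19.6% of the narrowest quartile (15.3 to 24.5%), then 14.2%, 16.9% and 11.3% of the widest (8.02 to 15.4%) were listed again, against 15.5% overall. Their order was uneven, and the intervals of the narrowest and widest positive quartiles just overlapped. An overlap of 1 bp is itself easier to meet for a wide region, and that part was not tested. The intervals cover counting error over regions only.

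By the size of the change, the share rose in positive regions from 9.03% in the lowest quartile of absolute log2 (6.09 to 12.8%) to 19.7% in the highest (15.5 to 24.6%). In negative regions it was 52.6%, 51.3%, 55.3% and 59.1%. Width and size together gave a broader range in negative regions. Of those in the widest and highest quartiles, 58 of 73 (79.5%, interval 68.4 to 88.0%) were listed at both times. In the narrowest and lowest it was 19 of 48 (39.6%, 25.8 to 54.7%). Positive regions had 4 of 26 (15.4%) and 4 of 24 (16.7%) in these groups.

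**Figure D3:**
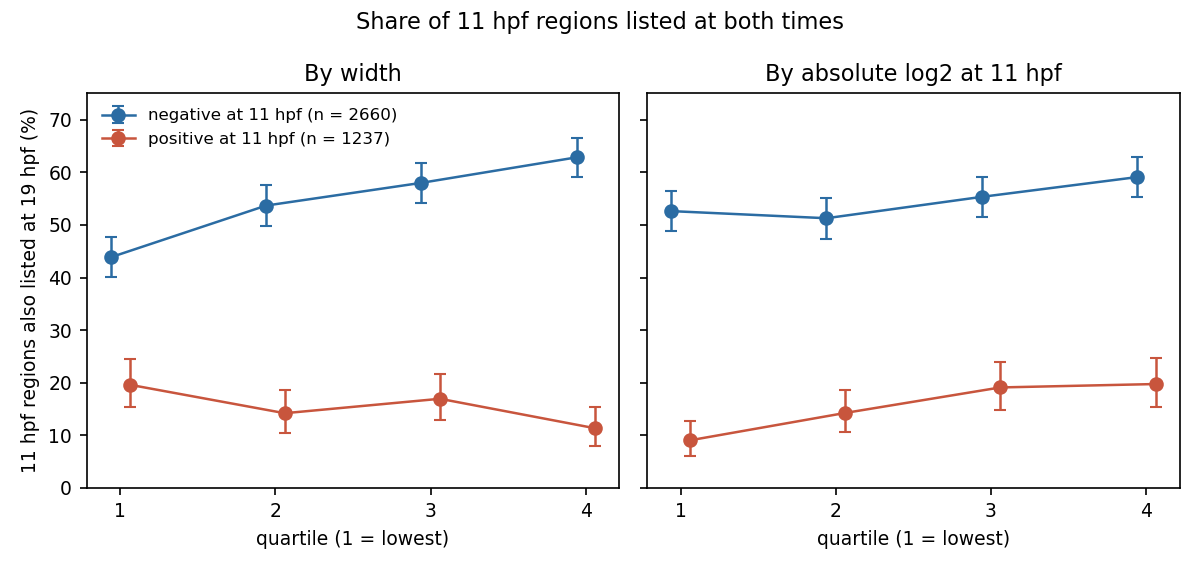
Percent of 11 hpf regions that overlap a 19 hpf region, by quartile of width (left) and of absolute log2 at 11 hpf (right), for regions negative and positive at 11 hpf; points are shares and bars exact 95% intervals over regions. By width, the negative share rises from 43.9 to 62.9%, whereas the positive share is 19.6, 14.2, 16.9 and 11.3% from the narrowest to the widest quartile.

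Seen from 19 hpf, the negative regions that had been listed at 11 hpf were also the wide ones. Of the narrowest quartile 12.5% met an 11 hpf region, and of the widest 34.4%. By absolute log2 these shares were 13.6% in the lowest and 27.9% in the highest quartile. Positive 19 hpf regions ran the other way by size, with 32.2% of the lowest quartile (25.2 to 39.7%) and 21.2% of the highest (15.3 to 28.1%) meeting an 11 hpf region.

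Set beside regions listed once, both-negative regions had a median width of 671 bp at 11 hpf, against 538.5 bp in negative regions listed only at 11 hpf. At 19 hpf it was 693.5 bp, against 482 bp in negative regions listed only then. Their median absolute log2 of 2.12 at 11 hpf compares with 2.04 in the first of these groups, and that of 2.61 at 19 hpf with 2.36 in the second. Both-positive regions were narrower than positive regions listed only at 11 hpf (median 553 against 606 bp) and had the larger values (2.06 against 1.80). At 19 hpf they were wider than positive regions listed only then (526 against 454 bp) and had the smaller values (2.21 against 2.33). In each pair of medians the quartile ranges overlapped.

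The paired regions lay closely on each other, although the edges were drawn separately at each time. The median overlap was 530 bp, and the median region had 91.9% of its 11 hpf length and 95.4% of its 19 hpf partner's length in common with the other. In 1303 of 1644 pairs (79.3%) at least 50% of both regions was shared, and in 428 (26.0%) at least 90% of both. The midpoints differed by a median of 67 bp (quartiles 20 to 174 bp). Both edges were identical in 2 pairs, the positive region on xpSc0039672 given above and one on Sc0000000 (4538847 to 4539081), with a log2 of 2.34 and then 2.91.

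Both-positive regions overlapped their partners more fully than both-negative ones. At least 90% of both regions was shared in 71 of 169 (42.0%) and 353 of 1452 (24.3%) respectively, and the median shifts of the midpoints were 32 and 72 bp. Somewhat more pairs were wider at 11 hpf (874) than at 19 hpf (763, or 46.4%, exact 95% interval 44.0 to 48.9%), and the median ratio of widths, 19 to 11 hpf, was 0.985. Where at least 90% was shared, the median difference in absolute log2 was 0.58 in negative and 0.23 in positive regions. Over all both-negative and both-positive regions it was 0.53 and 0.20. The lists differ in their smallest value for these pairs too, and the part of this was not tested.

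**Figure D4:**
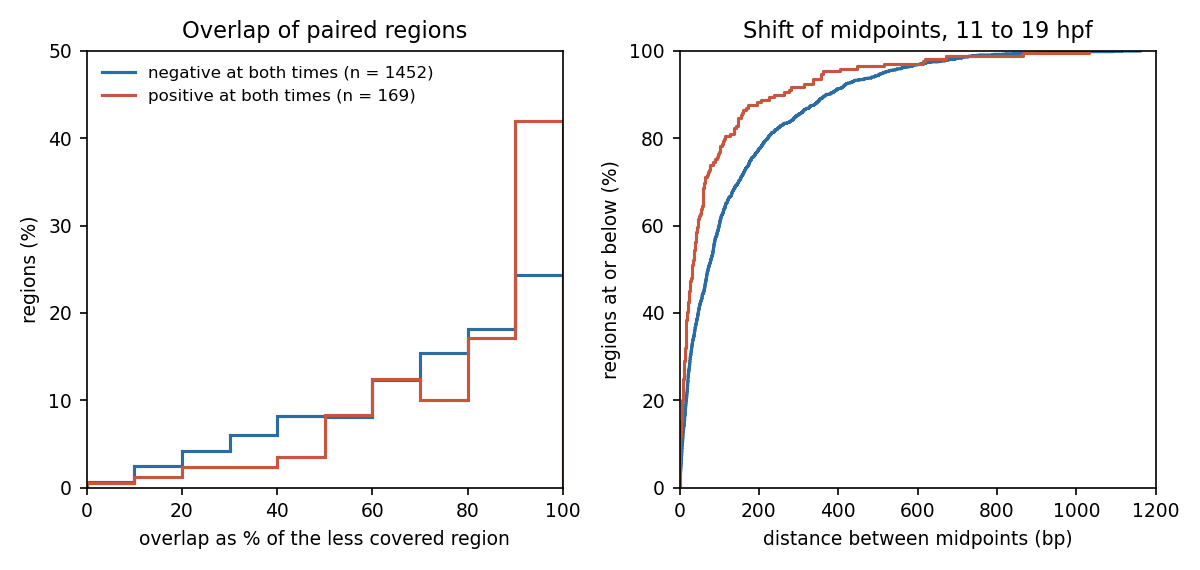
Left, percent of regions by the overlap of paired regions, as a percent of whichever region is covered less, in steps of 10 points. Right, cumulative percent of regions by the distance in bp between the midpoints at 11 and 19 hpf. The both-positive regions have the higher bar at 90 to 100% (42.0 against 24.3%) and the smaller shifts (median 32 against 72 bp).

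Some regions were drawn as one at one time and as several at the other. There were 27 regions at 11 hpf that met 2 at 19 hpf, and 57 regions at 19 hpf that met 2 at 11 hpf, with 3 more that met 3. In 0 of these groups did the regions of one time differ in sign. The 3 broad ones were all negative. On Sc0000049 a single 19 hpf region (632969 to 634912, -2.27) spans 11 hpf regions with -2.42, -2.07 and -1.87. On Sc0000137 (206699 to 208028) the value was -2.64, against -2.85, -3.12 and -3.35, and on Sc0000185 (371017 to 373251) it was -2.89, against -2.73, -2.42 and -2.58. Because of such sharing, the 1644 regions have 1582 distinct partners, and regions with one partner are not independent values.

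At the edge of the rule, the smallest overlaps were 8 bp on Sc0000039 (2248919 to 2249377), 25 bp on Sc0000002 (7227288 to 7228306) and 64 bp on Sc0000011 (3604784 to 3604909), all of them negative at both times. Only 10 regions overlapped by 100 bp or less. Just outside it, the smallest gaps to a 19 hpf region were 15 bp on Sc0000089 (968524 to 968769), 74 bp on Sc0000005 (1916434 to 1917136) and 114 bp on Sc0000013 (128442 to 128774), again negative at both times. Of the 2253 regions left out, 128 had a 19 hpf region within 500 bp, 873 had one within 10 kb, and 222 lay on a scaffold with none.

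Another 11 hpf region lay within 10 kb of 893 of the 1644 regions (54.3%), and of 1014 of the 2253 listed only at 11 hpf (45.0%). These groups differ in their make-up by sign. The share was 56.0% of both-negative regions, against 49.3% of negative regions listed only at 11 hpf. For both-positive regions it was 41.4%, against 40.1% of positive regions listed only at 11 hpf. When neighbours listed at both times and at most 10 kb apart were joined, 686 of the 1644 (41.7%) fell into 280 chains of 2 or more, 197 of them pairs, with a median span of 3.07 kb. The 123 regions that share a 19 hpf region with another are among them, so some chains hold pieces of a single 19 hpf region. With at least 50% of both paired regions shared, 183 chains were left. Among both-negative regions 647 (44.6%) were in a chain, and among both-positive ones 32 (18.9%). The first group is the larger and so has more chances to be neighbours. Signs were mixed in 3 chains, whereas 262 were negative at both times throughout, 12 positive at both times throughout, and 3 positive and then negative throughout. Of these last, the chains on Sc0000013 and Sc0000014 each met a single 19 hpf region.

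The chain with the most members was on Sc0000000 (8727378 to 8772797), with 8 both-negative regions over 45.4 kb among 21 consecutively numbered regions at 11 hpf. Its log2 values ran from -3.02 to -1.69 at 11 hpf and from -4.28 to -1.87 at 19 hpf, and 6 of the 8 were larger in absolute value at 19 hpf. The chain on Sc0000049 (623067 to 639635) was more compact, with 7 regions among 9 numbers and a narrow range at both times, -2.42 to -1.75 and -2.50 to -2.19. Its 7 regions met only 5 at 19 hpf, since 3 of them share the broad 19 hpf region given above. The chain on Sc0000141 (7941 to 31667) held 6 regions among 8 numbers, from -3.12 to -2.26 and from -2.89 to -2.31. Only 2 of these 6 were larger at 19 hpf.

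Of the 8 chains with 5 or more members, 1 was positive. On Sc0000013 (1988584 to 2006623) 6 regions had 11 hpf values from 1.37 to 4.37 and 19 hpf values from 1.78 to 2.39. All 10 regions listed there at 11 hpf were positive, out of 12 consecutive numbers, and 5 were listed at 19 hpf, also all positive. Only 1 of the 6 was larger at 19 hpf. At a distance of 14.8 kb before its start, with 0 listed regions between, lay a pair of regions (1972549 to 1972940 and 1973383 to 1973780) that were positive at 11 hpf, with 2.54 and 2.44. Both fell within a single 19 hpf region (1972012 to 1974092) with a negative value of -1.53. This neighbour was picked out after its values were seen.

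The other chains of 5 were negative. On Sc0000005 (1905750 to 1921549) the range was -4.38 to -1.47 at 11 hpf and -3.18 to -2.13 at 19 hpf, and on Sc0000129 (65456 to 85002) -3.13 to -1.62 and -2.34 to -1.81. On Sc0000052 (554207 to 561130) all 5 consecutively numbered regions of 11 hpf were listed, from -3.57 to -1.28, with 4 regions at 19 hpf. On Sc0000218 (400161 to 414405) all 5 were larger in absolute value at 19 hpf, with medians of -1.61 and -2.66. These few chains thus differed in how many members were larger at 19 hpf. Of all both-negative regions 77.3% were larger at 19 hpf, from 100% in the lowest quartile of absolute log2 at 11 hpf to 41.0% in the highest. The chains differed in their 11 hpf values too, and the part of this was not tested.

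**Figure D5:**
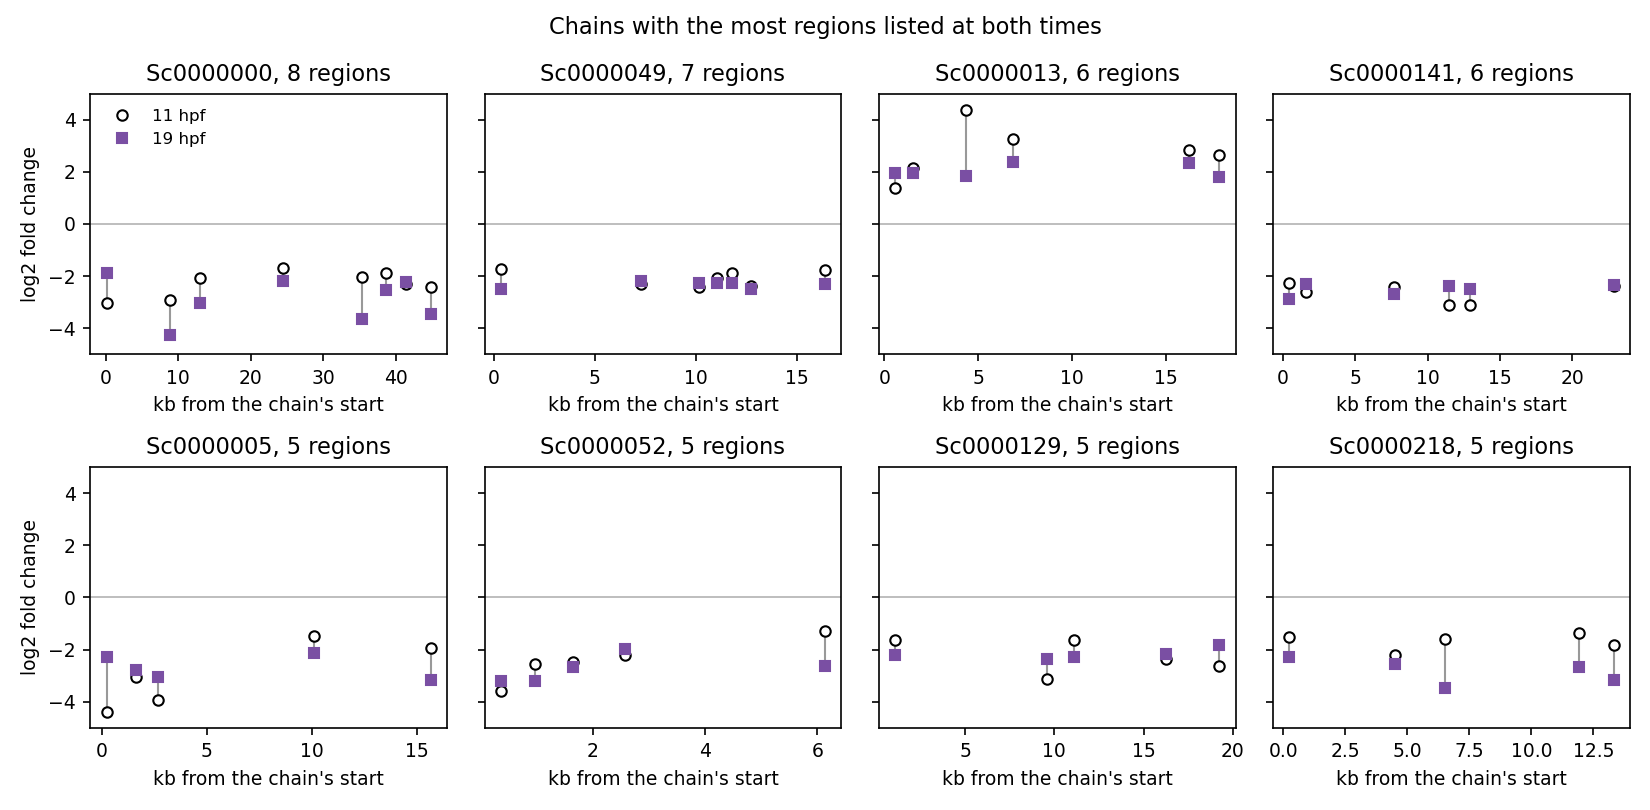
Log2 fold change (deposited sign) of each region in the 8 chains with 5 or more members, against the distance of its midpoint from the chain's start in kb; open circles are 11 hpf, filled squares 19 hpf, and grey lines join the values of one region. The chain on Sc0000013 is the one above 0, and there 5 of 6 circles lie farther from 0 than their squares, while on Sc0000218 all 5 squares lie farther from 0.

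Within chains, the sizes of both-negative values were nearly as spread as over the same regions together. In the 79 chains with 3 or more both-negative regions, the pooled standard deviation of their log2 within a chain was 0.63 at 11 hpf. It was 0.67 over the same 276 regions regardless of chain. Among these chains, that on Sc0000102 also held a region positive at both times, which was left out. At 19 hpf the spread within a chain was 0.62, against 0.68 over 254 distinct regions. In 32 of the 79 chains every both-negative member was larger in absolute value at 19 hpf, and in 7 none was. Of all both-negative regions, in a chain or not, 1122 of 1452 (77.3%) were larger at 19 hpf. Whether members of a chain changed together was not tested. Both-negative regions in a chain had a median absolute log2 of 2.25 at 11 hpf, against 2.04 in those outside any chain. At 19 hpf these medians were 2.68 and 2.56.

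The surroundings of these regions held further listed regions, mostly of their own sign. An 11 hpf region not listed again lay within 10 kb of 465 of the 1644 (28.3%), and a 19 hpf region not listed before within 10 kb of 672 (40.9%). Of the 2253 regions listed only at 11 hpf, 616 (27.3%) had such a late neighbour. By sign, it was found for 42.2% of both-negative regions, against 31.2% of negative regions listed only at 11 hpf. For both-positive regions the share was 29.6%, against 22.9% of positive regions listed only at 11 hpf. No other region of either list lay within 10 kb of 473 of the 1644 (28.8%). Counting each pair of neighbours, 575 of 591 (97.3%) such early neighbours of both-negative regions were negative, and 112 of 115 (97.4%) of those beside both-positive regions were positive. Over all regions listed only at 11 hpf, 46.4% were positive. Among the late neighbours, 859 of 879 (97.7%) beside both-negative regions were negative. Beside both-positive regions 50 of 79 (63.3%) were positive, where 9.12% of all regions listed only at 19 hpf were. The late neighbours of both-positive regions were thus of mixed sign, and their share of positive regions lay above that of the list.

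By scaffold, Sc0000000 and Sc0000003 held 41 regions each, Sc0000007 held 39, Sc0000001 38 and Sc0000005 33. On Sc0000007 all 39 were negative at both times. On Sc0000000 6 were positive at both times and 1 was positive and then negative. The share of 11 hpf regions listed again ranged among these 5 scaffolds from 30.9% on Sc0000001 (38 of 123) to 54.7% on Sc0000003 (41 of 75). Of 51 scaffolds with 8 or more such regions, 18 held both-negative ones only. Of all 1644 regions 88.3% were both-negative, and whether scaffolds depart from that share was not tested. On the 96 scaffolds that spanned at least 1 Mb and held any, the median density was 3.96 per Mb of span (quartiles 2.27 to 4.96). Span runs to the end of the last listed region, since scaffold lengths were not at hand.

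Of the 23 regions whose sign turned from positive to negative, 15 lay under the median absolute log2 of positive regions at 11 hpf (1.85) and 20 under that of negative regions at 19 hpf (2.42). Their log2 ran from 1.12 to 2.54 at 11 hpf (median 1.60) and from -2.97 to -1.53 at 19 hpf (median -1.83), and 0 reached an absolute value of 3 at either time. The 5 strongest at both times were on Sc0000019 (3223617 to 3224564), with 2.18 and -2.18, on Sc0000182 (12023 to 12259), with 2.15 and -2.97, and on Sc0000008 (5078333 to 5080056), with 2.11 and -2.76. They were followed by Sc0000544 (21169 to 22092), with 1.95 and -2.78, and Sc0000014 (4034114 to 4035783), with 1.93 and -1.96. On Sc0000008 and Sc0000544 the negative 19 hpf region covered 21.3% and 26.6% of the 11 hpf region, so its value describes only part of that region. On Sc0000019 the whole 11 hpf region was covered. The region on Sc0000182 lay in a chain with a pair of regions that were negative at both times, at -1.18 and -2.52 and at -1.37 and -2.44.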

How the data were processed

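The authors' lists of differential ATAC-seq regions at 11 and 19 hpf were used as deposited. The authors' tools included BWA and DESeq2, per the submitters' processing notes, which name no versions. Build, peak caller and thresholds were not given in the sources used. The deposited signed column was read as a log2 fold change from its values and that tool's usual output. Read depth is unknown, and intervals cover counting error over regions only.

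Regions were paired by largest overlap (at least 1 bp, ties by lower start), and chains joined neighbours at most 10 kb apart, with Python 3.11.15, pandas 2.3.3, numpy 2.4.6 and scipy 1.17.1. The functions were tested on simulated lists. Starts are 1-based. No test was made, because the rule reads the same contrasts.

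Named regions are the 5 per sign pair with the largest smaller absolute value, the 5 largest increases and decreases, the chains with the most members (8, with ties for the fifth), 19 hpf regions meeting 3, the 3 nearest each side of the rule and the 5 scaffolds with the most members. Members and rules were chosen with earlier results of these data known. Alternatives were 50% overlap, midpoints within 500 bp, an absolute log2 of at least 2 and 19 hpf regions as the starting list. Others were scaffolds with a span of at least 1 Mb, other chain distances and, added after the data were seen, one-to-one pairs.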

Additional observations from a re-analysis of the deposited data

Results flagged for a closer look

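The 23 regions whose sign turned from positive at 11 hpf to negative at 19 hpf drew attention because the direction of the same contrast differed between the times. They lay on 20 scaffolds and met 21 distinct 19 hpf regions. The difference was not tested, as the lists hold no values per library.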

How the results depend on the processing

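Of 34 recalculations over 7 results, 25 stayed within the interval of the value reported or, for counts, within 1.5 times. Only the median log2 differences could change direction, and 0 of them did. The counts and the share of equal signs have no direction to change. When both lists were limited to absolute log2 values of 2 or more, 872 regions were listed at both times and 99.7% had the same sign. The median log2 difference was then -0.29 in both-negative and 0.080 in both-positive regions, and 3 regions were positive and then negative. Requiring 50% of both regions to overlap left 15 regions positive and then negative, 183 chains and 430 regions in a chain. Scaffolds with a span of at least 1 Mb held 1061 of the regions, with fewer scaffolds used by construction. One-to-one pairs numbered 1495. No paired analysis was possible because the lists hold no values per library, and for the same reason no library could be left out. Unknown depth limits every value.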
